A study of Homo sapiens with 33 samples.

Results

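The genes described here are 44 core members of the TGF-beta and BMP signalling pathway: 17 ligands, 10 receptors, 8 SMADs, 5 antagonists and the 4 ID genes. They were taken by gene symbol from a list of the pathway, chosen with earlier results of these data known. All 44 were among the 29744 genes of the deposited table, each with at least 1 count in some library.

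RNA was sequenced from 11 high-grade serous ovarian carcinoma (HGSOC) cell lines, with 3 libraries per line and 33 in all. The lines form 4 families of 1 sensitive parent each, named as sensitive or resistant in the study's text. OVCAR3 and OVCAR4 each had a pair of resistant derivatives, ResA and ResB, made independently by repeated pulses of cisplatin with recovery in between, and not kept in the drug afterwards. The PEA and PEO families are commercially available lines, each derived from 1 patient. PEA1 and PEO1 are the sensitive members and PEA2, PEO4 and PEO6 the resistant ones. For the PEA and PEO families, parent and derivative below mean the sensitive and resistant lines of the same patient, not lines made from each other in culture. The labels give no engineered allele and no treatment at sampling, and the OVCAR3 and OVCAR4 families were grown with insulin whereas the PEA and PEO lines were not. Each derivative is 1 line, so a difference within a family describes those lines.

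In this pathway, secreted dimers bind type II receptors, which phosphorylate type I receptors, and these in turn phosphorylate receptor SMADs that enter the nucleus with SMAD4. TGF-beta and activin ligands act mainly through SMAD2 and SMAD3, and BMPs mainly through SMAD1, SMAD5 and SMAD9, which switch on the ID genes and the inhibitory SMADs. Activin A, a dimer of INHBA, and BMPs are well known in the ovary, where follistatin and inhibin restrain activin.

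Estimated counts totalled 18058985 to 43394009 per library, and levels below are TPM, which account for library depth and gene length. The share of counts from the mitochondrial ribosomal RNA genes ran from 1.12% to 14.8%, and in the OVCAR4 family it moved with line and replicate: 5.18%, 14.8% and 12% in the parent, 9.23%, 2.02% and 2.09% in ResA, and 13.1%, 2.47% and 2.39% in ResB. For 31 of 33 libraries the most similar other library was from the same line, and the exceptions were replicate 1 of OVCAR4 ResA and replicate 1 of OVCAR4 ResB, which were most like each other. Of 7 carcinoma markers, 5 were over 1 TPM in all 11 lines, and the exceptions were WT1, at 0.645 to 2.32 TPM in the OVCAR4 and PEA families and 2.09 TPM in OVCAR3 ResA, and MUC16. PEA1 stood apart, with EPCAM at 14 TPM against 530 to 800 TPM in the other 10 lines, KRT7 at 2.95 TPM and MUC16 at 0.0696 TPM, and with COL1A1 at 88.4 TPM and PDGFRB at 6.55 TPM. Over the 33 libraries the sum of 4 fibroblast markers ran from 0.635 to 116 TPM, and those of 3 leukocyte and 3 endothelial markers reached 7.19 and 14.4 TPM, while the line means of DCN and CD3E were at most 0.150 and 0.0186 TPM. Single markers of these lists moved in other pairs too. LUM, a fibroblast proteoglycan, was at 2.78, 0.793 and 1.04 TPM in OVCAR4, 4.84, 27.1 and 21.1 TPM in ResA and 0 in ResB, with summed fibroblast markers of 3.65 to 4.78, 8.87 to 30.5 and 4.36 to 6.09 TPM. PECAM1, an endothelial adhesion protein, was at 0.048, 0.0297 and 0 TPM in OVCAR3 and 3.83, 2.84 and 13.6 TPM in OVCAR3 ResB, with summed endothelial markers of 0.239 to 0.546 and 3.01 to 14.4 TPM.

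Across the 11 lines the main ligands and antagonists were high in some families and near 0 in others, whereas most receptors and the signal-carrying SMADs were present everywhere. Mean TPM was over 1 in every line for 8 of the 10 receptors, the others being TGFBR3 and BMPR1B, and for 7 of the 8 SMADs, the other being SMAD9.

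**Figure D1:**
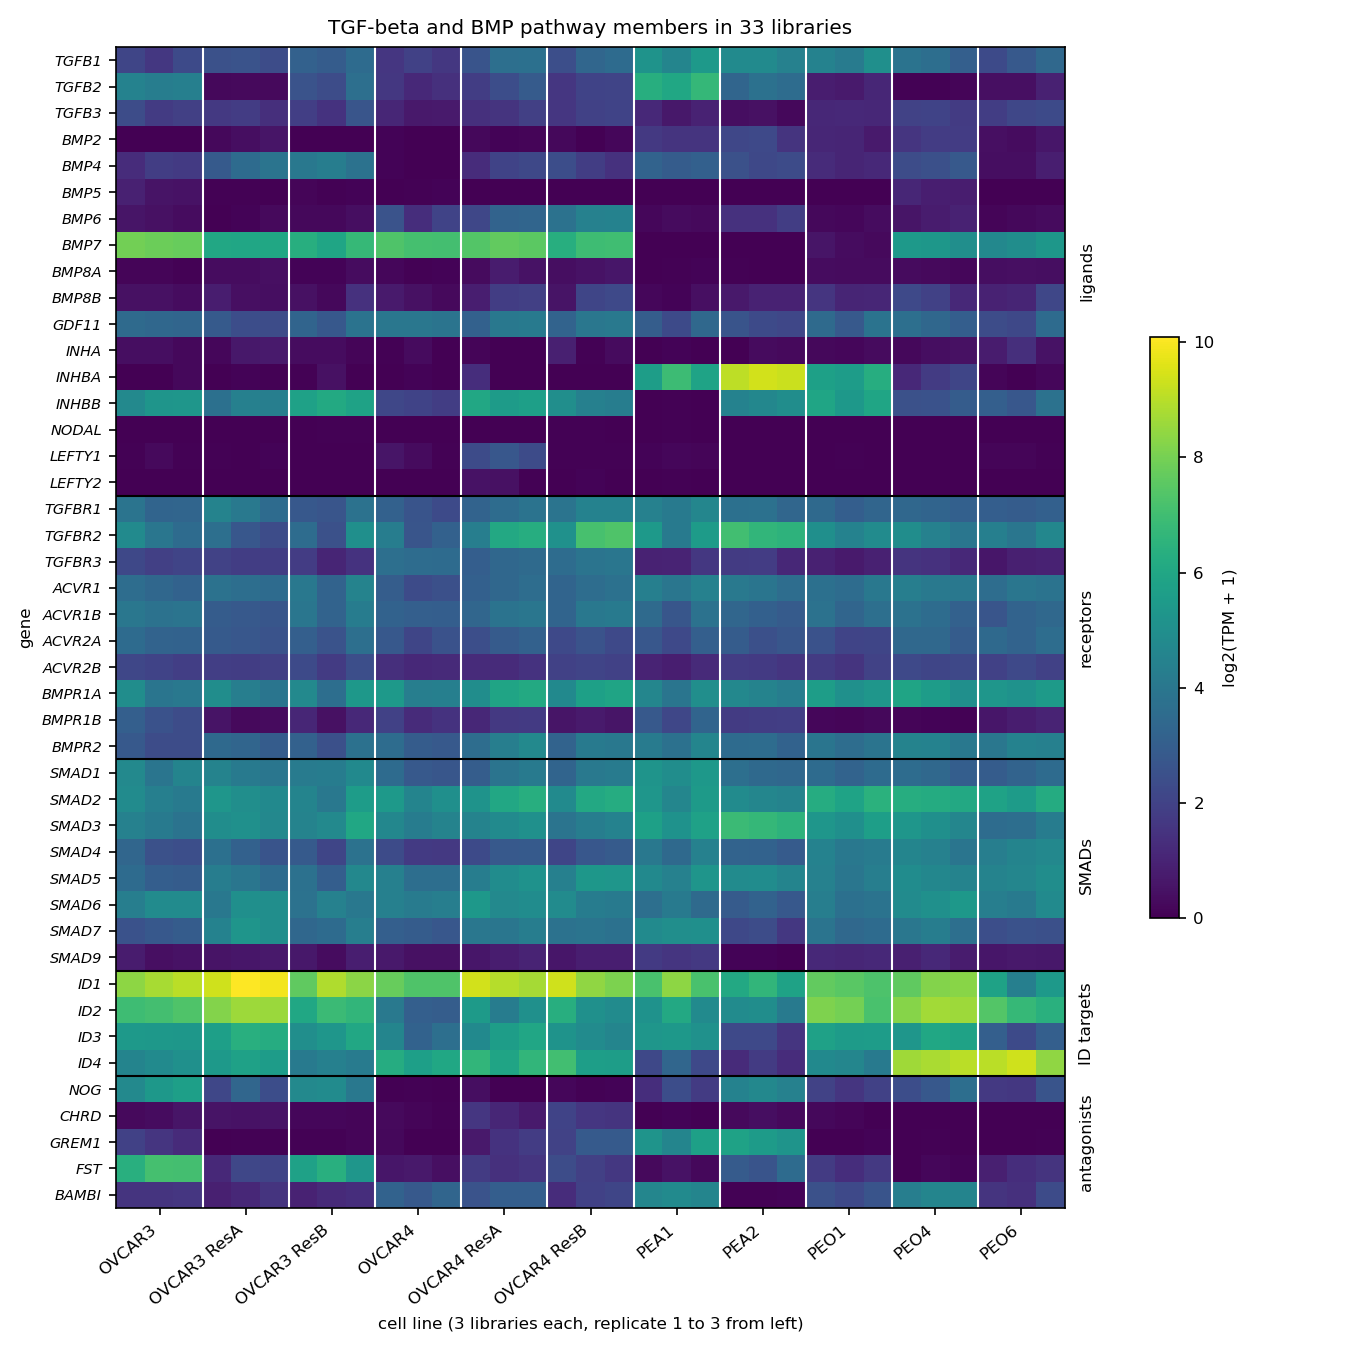
Levels of the 44 members, grouped by class (vertical axis), in the 33 libraries, ordered by line (horizontal axis), as log2(TPM + 1) in colour. The ID genes and most receptors and SMADs are coloured in every line, while INHBA is coloured in the PEA lines, PEO1 and PEO4, and BMP7 in the OVCAR3 and OVCAR4 families, PEO4 and PEO6.

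Each resistant line was compared with its own parent to ask which genes had changed with platinum resistance, by DESeq2 on the 3 libraries against 3 with the replicate number as a block, with p-values adjusted over all genes and called when under 0.05. Nothing in the labels says that replicates were separate cultures. The p-values thus measure the spread between these libraries, beyond shifts shared by same-numbered ones, and that spread may be technical. In bulk RNA, fewer cells of a type and less RNA per cell cannot be told apart.

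Beside each count of members stands, in parentheses, the share of all tested genes called in that comparison or direction. In OVCAR3 ResA, 29 of 42 members with an adjusted p were called (44.9% of all genes), 14 higher (22% of all genes) and 15 lower (22.9%). In OVCAR3 ResB 7 of 39 were called (7.67% of all genes), 2 higher (4.1% of all genes) and 5 lower (3.57%). OVCAR4 ResA had 12 of 38 called (11.9% of all genes), 10 higher (6.68% of all genes) and 2 lower (5.22%). OVCAR4 ResB had 15 of 39 called (17.9% of all genes), 10 higher (9.09% of all genes) and 5 lower (8.77%). Increases made up most of the calls in both OVCAR4 derivatives. For PEA2 against PEA1 the count was 26 of 39 (47% of all genes), 10 higher (23.3% of all genes) and 16 lower (23.8%). PEO4 had 23 of 41 called (33.3% of all genes), 18 higher (16.6% of all genes) and 5 lower (16.7%). PEO6 had 15 of 38 called (41.4% of all genes), 5 higher (21.2% of all genes) and 10 lower (20.3%), a share near the background. The median log2 fold change of the members was -0.35 in OVCAR3 ResB and 0.52 in OVCAR4 ResB, the lowest and highest of the 7 pairs, with that of all genes between -0.02 and 0.02. The OVCAR4 counts depended on the setting, and same-numbered libraries of each derivative and OVCAR4 deviated in opposite directions (correlations -0.606 to -0.131). In OVCAR4 ResA 21 members were called without replicate 1, the library that stood apart (40.8% of all genes), 3 without replicate 2 (2.53%), 3 without replicate 3 (1.94%), 3 with limma on log2(TPM + 1) (2.31%) and 1, INHBB, with edgeR (1.54%). In OVCAR4 ResB the same settings gave 21 (46.1% of all genes), 9 (5.03%), 9 (4.26%), 6 (4.78%) and 9 (9.52%). The part of the mitochondrial share in the OVCAR4 results, and of LUM and PECAM1 in those of OVCAR4 ResA and OVCAR3 ResB, was not tested.

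The direction of a call differed between pairs. It could also differ within a family, as ID1, ID2 and BAMBI were called higher in PEO4 and lower in PEO6. Some of these calls were lost when a replicate was left out. Of the 33 members with an adjusted p in all 7 pairs, 21 (63.6%) had calls in both directions, against 5348 of 13924 genes (38.4%), and 7 (21.2%) were called in 5 or more pairs, against 944 genes (6.78%). Members were chosen with earlier results of these data known, so these shares are not a test of the pathway. Genes called in more pairs can also more readily be called in both directions, and the shares were not matched for this. When counts were summed per line and the 7 resistant lines were set against the 4 sensitive ones with the family as a term, DESeq2 called 0 of 44 members at an adjusted p under 0.05 (0.286% of all genes), with 5 of 44 under 0.05 unadjusted, and edgeR called 0 of 40 with 3 under 0.05 unadjusted. Leaving out the PEO family gave 1 call, BMP8B (log2 fold change 1.70, adjusted p = 0.0272 by DESeq2). The share of all genes called in that fit is not given here. Of the pairs outside the PEO family, BMP8B was called only in PEA2. That call was lost without replicate 1 or 2 (adjusted p = 0.0564 and 0.104, DESeq2), and its reads may be split with those of BMP8A. Pairs that share a parent, such as PEO4 and PEO6 with PEO1, share its 3 libraries.

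**Figure D2:**
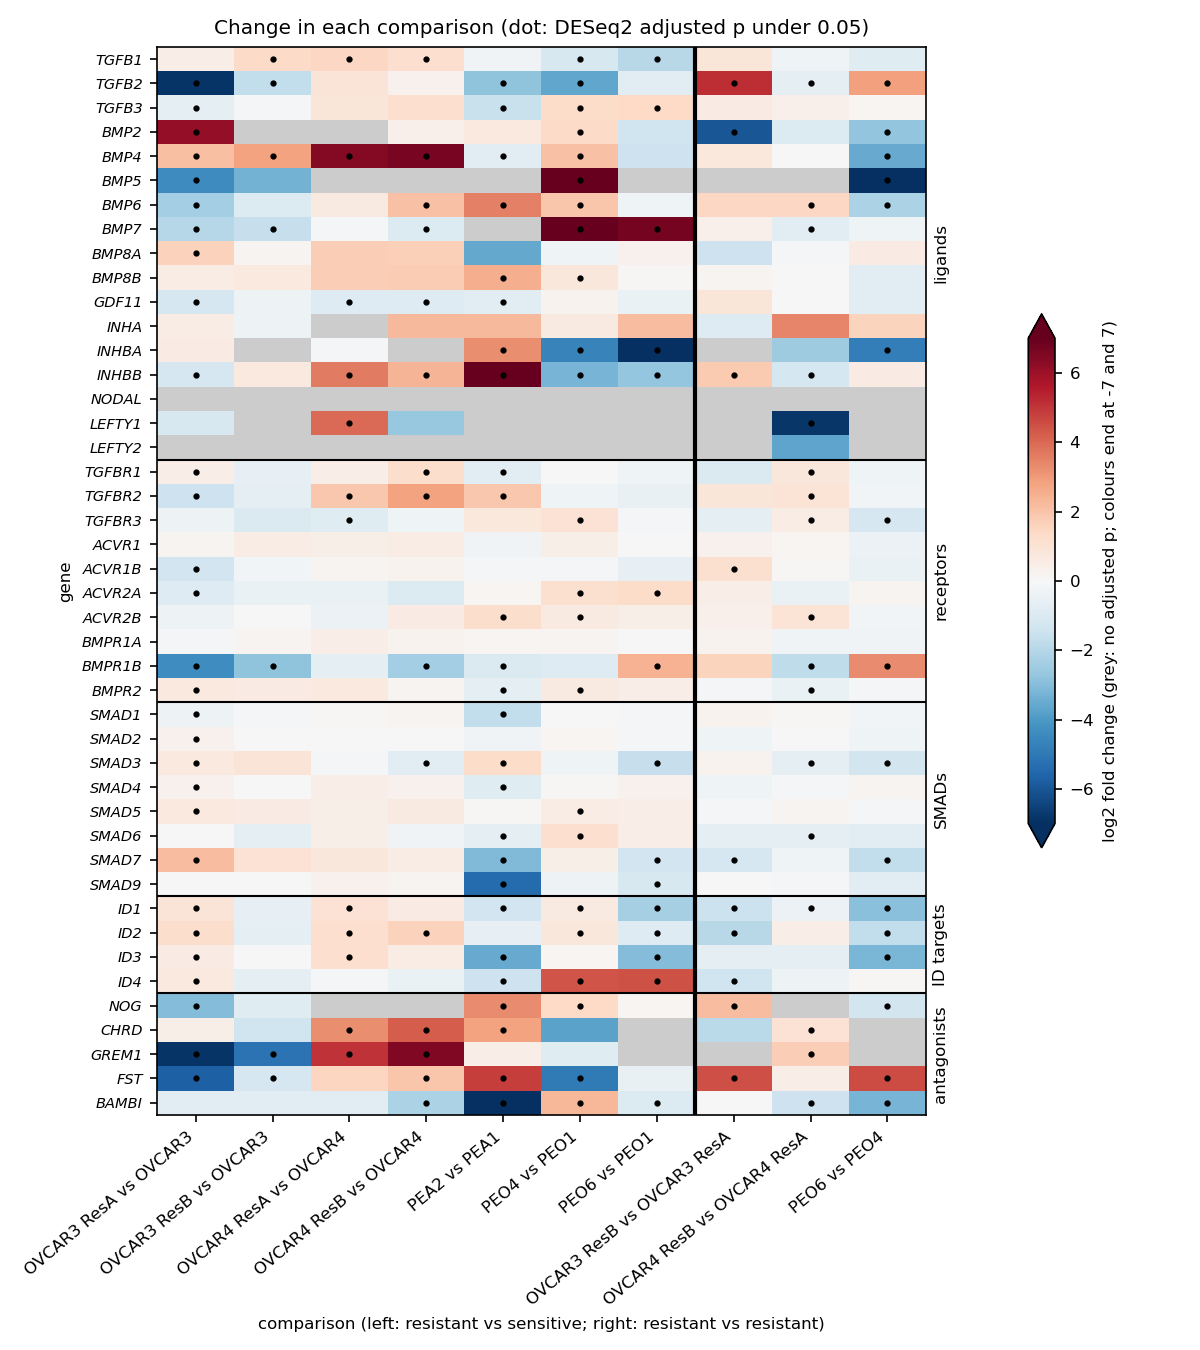
Log2 fold change in colour of each of the 44 members (vertical axis) in 10 comparisons of lines (horizontal axis), with a dot where the DESeq2 adjusted p is under 0.05 and grey where no adjusted p was given. Rows such as INHBB, ID1 and FST hold dots in both colours, and BMP4 has 5 dots for an increase and 1 for a decrease in the 7 resistant and sensitive pairs.

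Which ligand was most abundant depended on the family. BMP7, a BMP ligand, made up 44.1% to 84.4% of summed ligand TPM in the OVCAR3 and OVCAR4 lines, 46.8% in PEO4 and 51.9% in PEO6. TGFB2 led in PEA1 with 39.4% and INHBA followed with 36.1%, and INHBA led in PEO1 with 38.6% and INHBB followed with 35.1%. In PEA2 INHBA alone was 89% of a ligand sum of 686 ± 66.7 TPM (SD, n = 3), the highest of the 11 lines, against 209.7 ± 25.2 TPM in PEA1.

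**Figure D3:**
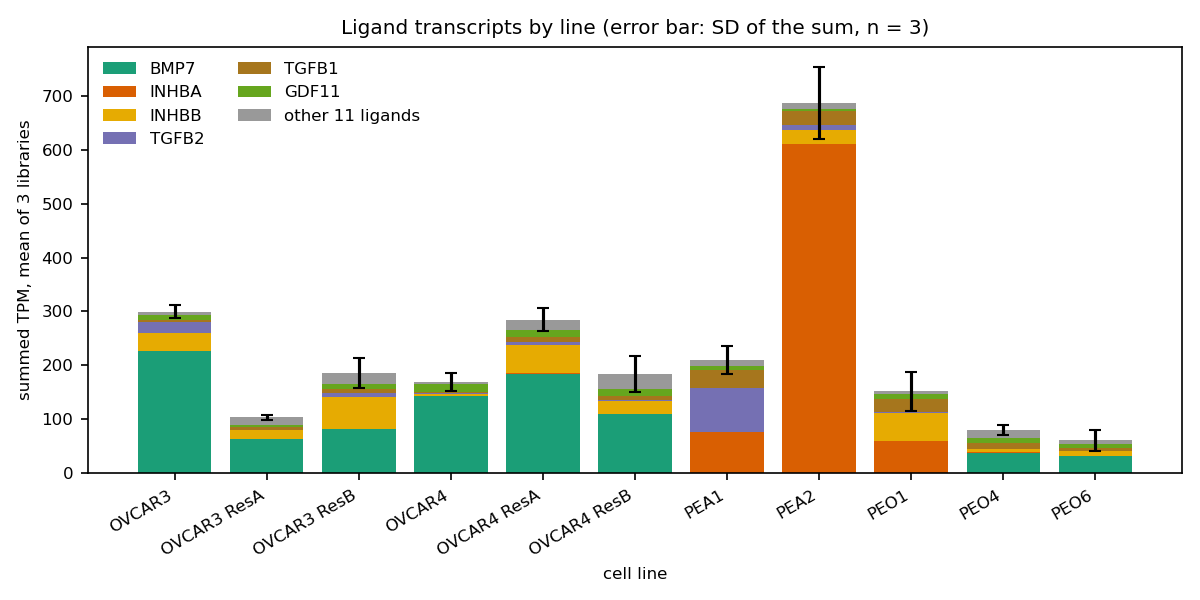
Mean TPM of the 17 ligands stacked by line (vertical axis, TPM; horizontal axis, 11 lines), with BMP7, INHBA, INHBB, TGFB2, TGFB1 and GDF11 shown apart and the other 11 ligands together; error bars are the SD of the sum over 3 libraries. PEA2 stands at 686 TPM, mostly INHBA, and BMP7 is the largest part of each OVCAR3 and OVCAR4 bar, from 44.1% in OVCAR3 ResB to 84.4% in OVCAR4.

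INHBA encodes the subunit of activin A. In the OVCAR3 and OVCAR4 families it was at or near 0, with 0 to 0.374 TPM in 17 of the 18 libraries and 1.49 TPM in replicate 1 of OVCAR4 ResA. In the 3 libraries of PEA1, given in the order of replicates 1 to 3 as for all genes below, INHBA stood at 48.3, 121 and 57.3 TPM, and in PEA2 at 545, 674 and 613 TPM. In the PEO family it was at 51.6, 46.8 and 77.8 TPM in PEO1, 1.22, 2.41 and 3.3 TPM in PEO4 and 0.0961, 0.0259 and 0.131 TPM in PEO6. No library of a derivative overlapped its parent in these 2 families, PEA2 being above PEA1 and both PEO4 and PEO6 below PEO1. It rose in PEA2 (log2 fold change 3.26, SE 0.29, adjusted p = 4.7e-27, DESeq2) and, among called members averaging at least 50 normalised counts, was the most reduced in PEO4 (log2 fold change -4.67, SE 0.24, adjusted p = 3.03e-82) and in PEO6 (log2 fold change -9.48, SE 0.55, adjusted p = 3.58e-65). In a single fit of all 33 libraries the PEA2 call was lost (adjusted p = 0.113).

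INHBB encodes the subunit of activin B. Its levels were 26.2, 37.1 and 38.7 TPM in OVCAR3, 12.1, 19.9 and 18.8 TPM in OVCAR3 ResA and 53, 69.9 and 54.6 TPM in OVCAR3 ResB. In the OVCAR4 family they were 3.42, 3.03 and 2.59 TPM in the parent, 65.4, 45.2 and 50.1 TPM in ResA and 30.8, 20.3 and 18.6 TPM in ResB. OVCAR3 ResA was thus the lowest of its family and both OVCAR4 derivatives were above their parent in every library. PEA1 had 0, 0.0328 and 0 TPM and PEA2 21.5, 24.4 and 29.7 TPM. In PEO1 the values were 59.4, 40.7 and 59.9 TPM, in PEO4 4.7, 4.75 and 6.7 TPM and in PEO6 7.22, 5.59 and 13.1 TPM. PEA1 was at the floor of 3 counts per library, with 2 counts in all, and PEO1 was above both of its derivatives. INHBB rose in OVCAR4 ResA (log2 fold change 3.62, SE 0.35, adjusted p = 2.93e-22, DESeq2) and in OVCAR4 ResB (log2 fold change 2.35, SE 0.40, adjusted p = 1.21e-07). In PEA2 the ratio of depth-scaled counts to PEA1 was 2250 (95% exact counting interval 623 to 18600), adjusted p = 9.22e-15. It fell in OVCAR3 ResA (log2 fold change -1.16, SE 0.12, adjusted p = 9.07e-22), PEO4 (log2 fold change -3.27, SE 0.20, adjusted p = 4.94e-58) and PEO6 (log2 fold change -2.72, SE 0.24, adjusted p = 2.97e-27), by DESeq2, and in OVCAR3 ResB its log2 fold change of 0.70 did not pass the test (adjusted p = 0.3).

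BMP7 was the most abundant ligand in 8 of the 11 lines by TPM. OVCAR3 held 244, 225 and 211 TPM, ResA 65, 61.3 and 62.7 TPM and ResB 79.9, 59.4 and 107 TPM. OVCAR4 held 159, 136 and 135 TPM, ResA 167, 202 and 184 TPM and ResB 79.8, 123 and 126 TPM. Both OVCAR3 derivatives were below their parent in every library. In the PEO family BMP7 was at 0.47, 0.248 and 0.21 TPM in PEO1, 43, 39 and 30.3 TPM in PEO4 and 25.3, 29.7 and 39.2 TPM in PEO6, and it was at 0 in all 6 libraries of PEA1 and PEA2. BMP7 was thus nearly silent in PEO1 and plain in both of its resistant relatives. Among called members averaging at least 50 normalised counts, it had the largest increase in PEO4 (log2 fold change 7.0, SE 0.27, adjusted p = 2.16e-140, DESeq2) and in PEO6 (log2 fold change 6.68, SE 0.33, adjusted p = 1.3e-87). It fell in OVCAR3 ResA (log2 fold change -1.99, SE 0.10, adjusted p = 4.99e-87) and OVCAR3 ResB (log2 fold change -1.62, SE 0.31, adjusted p = 6.53e-06), the second of these lost without replicate 2 (adjusted p = 0.0535), by DESeq2. In OVCAR4 ResB the log2 fold change of -0.98 (adjusted p = 0.00637) was not called by DESeq2 without replicate 2 (adjusted p = 0.32) or without replicate 3 (adjusted p = 0.385).

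BMP4, another BMP ligand, was the member most often called higher. It was at 1.4, 2.52 and 2.31 TPM in OVCAR3, 6.21, 10.6 and 13.7 TPM in ResA and 15.4, 18.1 and 12.9 TPM in ResB. In OVCAR4 it was at 0.0628, 0 and 0 TPM, in ResA at 1.45, 3.11 and 3.59 TPM and in ResB at 4.18, 2.54 and 1.7 TPM. All 4 derivatives lay above their parents without overlap. PEA1 had 8.23, 6.58 and 7.63 TPM and PEA2 4.59, 3.6 and 3.92 TPM. PEO1 had 1.33, 1.07 and 1.23 TPM, PEO4 4.05, 4.52 and 5.98 TPM and PEO6 0.308, 0.292 and 0.819 TPM. BMP4 rose in OVCAR3 ResA (log2 fold change 2.13, SE 0.25, adjusted p = 8.55e-16), OVCAR3 ResB (log2 fold change 2.83, SE 0.43, adjusted p = 6.25e-09) and PEO4 (log2 fold change 2.05, SE 0.37, adjusted p = 4.33e-07), by DESeq2. OVCAR4 itself had 2 counts in all, and the ratio of depth-scaled counts was 80.4 (95% exact counting interval 22 to 668), adjusted p = 7.3e-05 in ResA and 73.5 (95% exact counting interval 20.1 to 611), adjusted p = 7.8e-07 in ResB, the call in ResB being lost without replicate 1 (adjusted p = 0.126) and that in ResA with edgeR (adjusted p = 0.0542). The lower level in PEA2 (log2 fold change -0.76, SE 0.32, adjusted p = 0.043) was lost without replicate 1, 2 or 3 (adjusted p = 0.387, 0.347 and 0.125, DESeq2).

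TGFB2 encodes TGF-beta 2. It was at 20.9, 18.3 and 19.6 TPM in OVCAR3, 0.166, 0.181 and 0.18 TPM in ResA and 4.99, 4.08 and 11.8 TPM in ResB. The OVCAR4 lines held 2.15, 1.23 and 1.61 TPM (parent), 2.6, 4.28 and 6.42 TPM (ResA) and 2.04, 3.07 and 3.23 TPM (ResB). OVCAR3 ResA was far below its parent, and the OVCAR4 lines held at most 6.42 TPM. PEA1 had 78.4, 63.9 and 105 TPM and PEA2 8.9, 12.6 and 10.9 TPM. The PEO lines held 0.739, 0.662 and 1.12 TPM (PEO1), 0.0503, 0.0557 and 0.0939 TPM (PEO4) and 0.345, 0.35 and 0.922 TPM (PEO6). The 4 calls were all decreases: OVCAR3 ResA (log2 fold change -6.88, SE 0.25, adjusted p = 3.85e-159), OVCAR3 ResB (log2 fold change -1.71, SE 0.34, adjusted p = 2.43e-05), PEA2 (log2 fold change -2.80, SE 0.23, adjusted p = 1.28e-32) and PEO4 (log2 fold change -3.66, SE 0.60, adjusted p = 1.84e-08), by DESeq2. The OVCAR3 ResB call was lost without replicate 2 (adjusted p = 0.0568).

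TGFB1 encodes TGF-beta 1. It was at 3.3, 2.12 and 3.78 TPM in OVCAR3, 4.72, 4.91 and 4.02 TPM in ResA and 7.86, 6.58 and 10.4 TPM in ResB. OVCAR4 held 1.98, 2.82 and 2.14 TPM, ResA 5.14, 11.7 and 12.4 TPM and ResB 4.36, 9.19 and 10.7 TPM. In both OVCAR4 derivatives replicate 1 was well below the other 2 libraries, though still above every parent library. PEA1 and PEA2 held 35.2, 22.9 and 43.3 TPM and 27.6, 27.7 and 20.6 TPM, and these overlapped. PEO1 held 21.5, 17.3 and 31.6 TPM, PEO4 13.3, 11.4 and 7.25 TPM and PEO6 3.76, 6.08 and 9.55 TPM, both derivatives below the parent. TGFB1 fell in PEO4 (log2 fold change -1.10, SE 0.25, adjusted p = 5.74e-05) and PEO6 (log2 fold change -1.93, SE 0.25, adjusted p = 5.74e-13), by DESeq2, and without replicate 3 the PEO4 log2 fold change was -0.72. It was called higher in OVCAR3 ResB (log2 fold change 1.34, SE 0.40, adjusted p = 0.0151), OVCAR4 ResA (log2 fold change 1.46, SE 0.38, adjusted p = 0.00238) and OVCAR4 ResB (log2 fold change 1.15, SE 0.39, adjusted p = 0.0217). These 3 calls were lost without replicate 2 (adjusted p = 0.624, 0.22 and 0.295 by DESeq2), and also without replicate 1 in OVCAR3 ResB (adjusted p = 0.241) and without replicate 3 in the OVCAR4 derivatives (adjusted p = 0.555 and 0.665).

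LEFTY1, an inhibitor of nodal signalling in the same family, had the largest increase of OVCAR4 ResA among called members averaging at least 50 normalised counts. OVCAR4 held 0.472, 0.229 and 0.0397 TPM, ResA 3.89, 5.66 and 3.99 TPM and ResB 0.0515, 0.0396 and 0.0372 TPM, and every library of the other 8 lines was at 0.179 TPM or less. OVCAR4 ResA therefore stood apart from both other OVCAR4 lines (log2 fold change 3.95, SE 0.75, adjusted p = 9.37e-06, DESeq2), a call lost with edgeR (adjusted p = 0.0542). LEFTY1 and LEFTY2 are near-identical copies whose reads may be split, and their sum behaved alike, at 0.255 ± 0.230 TPM in OVCAR4, 4.79 ± 1.09 TPM in ResA and 0.0628 ± 0.0328 TPM in ResB (SD, n = 3). GDF11, a ligand that signals through activin receptors, was the most reduced of these members in OVCAR4 ResA, yet at 15.2, 14.9 and 13.6 TPM in OVCAR4, 7.77, 15.4 and 16.8 TPM in ResA and 8.15, 14.9 and 15.8 TPM in ResB its TPM values overlapped. Its log2 fold change on DESeq2's scaling was -0.89 (adjusted p = 0.0294) in ResA and -0.89 (adjusted p = 0.0291) in ResB. Both calls were lost without replicate 2 (adjusted p = 0.663 and 0.548) or 3 (adjusted p = 0.75 and 0.588). On TPM the median gene of OVCAR4 ResA and ResB was 0.44 and 0.47 above the parent on the log2 scale, a shift that DESeq2's scaling removes. OVCAR3 held 10.2, 9.32 and 8.92 TPM, ResA 6.31, 4.23 and 4.09 TPM and ResB 8.46, 5.77 and 13.5 TPM of GDF11. In PEA1 it was at 6.87, 3.83 and 9.62 TPM and in PEA2 at 5.08, 3.81 and 3.49 TPM, with 10.3, 5.96 and 13.4 TPM in PEO1, 11.9, 9.28 and 7.17 TPM in PEO4 and 4.07, 3.6 and 10.4 TPM in PEO6. GDF11 was also called lower in OVCAR3 ResA (log2 fold change -1.20, SE 0.13, adjusted p = 9.29e-19, DESeq2), a call kept in all 10 other settings. Its call in PEA2, again lower, was lost without replicate 1 or 3 (adjusted p = 0.17 and 0.202, DESeq2).

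The other 9 ligands were mostly low. TGFB3, which encodes TGF-beta 3, lay between line means of 0.28 TPM in PEA2 and 3.28 TPM in PEO6, and was called higher in PEO4 and PEO6 and lower in OVCAR3 ResA and PEA2. Each of these calls depended on single libraries: by DESeq2 the PEA2 call was lost without replicate 1, 2 or 3 (adjusted p = 0.45, 0.135 and 0.262), that of OVCAR3 ResA without replicate 1 or 3 (adjusted p = 0.387 and 0.288), that of PEO4 without replicate 1 or 2 (adjusted p = 0.0904 and 0.0545) and that of PEO6 without replicate 3 (adjusted p = 0.0551). BMP2, BMP6, BMP8A and BMP8B had line means of at most 3, 18.3, 0.452 and 2.59 TPM, the highest lines being PEA2, OVCAR4 ResB, OVCAR4 ResA and PEO4 in turn. BMP6 was called higher in OVCAR4 ResB, PEA2 and PEO4 and lower in OVCAR3 ResA. The PEA2 call (0.188 TPM in PEA1, 1.99 TPM in PEA2) was kept in all 10 other settings, and that of OVCAR4 ResB was lost only with limma (adjusted p up to 0.0585). By DESeq2 the PEO4 call was lost without replicate 1, 2 or 3 (adjusted p = 0.12, 0.22 and 0.132) and that of OVCAR3 ResA without replicate 1 or 2 (adjusted p = 0.446 and 0.185). BMP2 was at 0 in OVCAR3 and at least 4.71-fold higher in OVCAR3 ResA against a floor of 3 counts per library, and BMP5 was at 0 in PEO1 and at least 10.5-fold higher in PEO4 on the same basis, a call lost without replicate 3 (adjusted p = 0.139, DESeq2). BMP5 was lower in OVCAR3 ResA than in OVCAR3 by a ratio of 23.3 (95% exact counting interval 7.62 to 116), adjusted p = 0.000512 by DESeq2, and this call was lost without replicate 1 (adjusted p = 0.0713). BMP8A and BMP8B are near-identical, and their summed TPM was 0.503 ± 0.268 in OVCAR4, 2.47 ± 1.24 in ResA and 2.89 ± 1.87 in ResB (SD, n = 3). INHA, the inhibin alpha subunit, NODAL and LEFTY2 were not called in any of the 7 pairs, and no library held more than 1.59 TPM of INHA, 0.0516 TPM of NODAL or 0.411 TPM of LEFTY2.

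**Figure D4:**
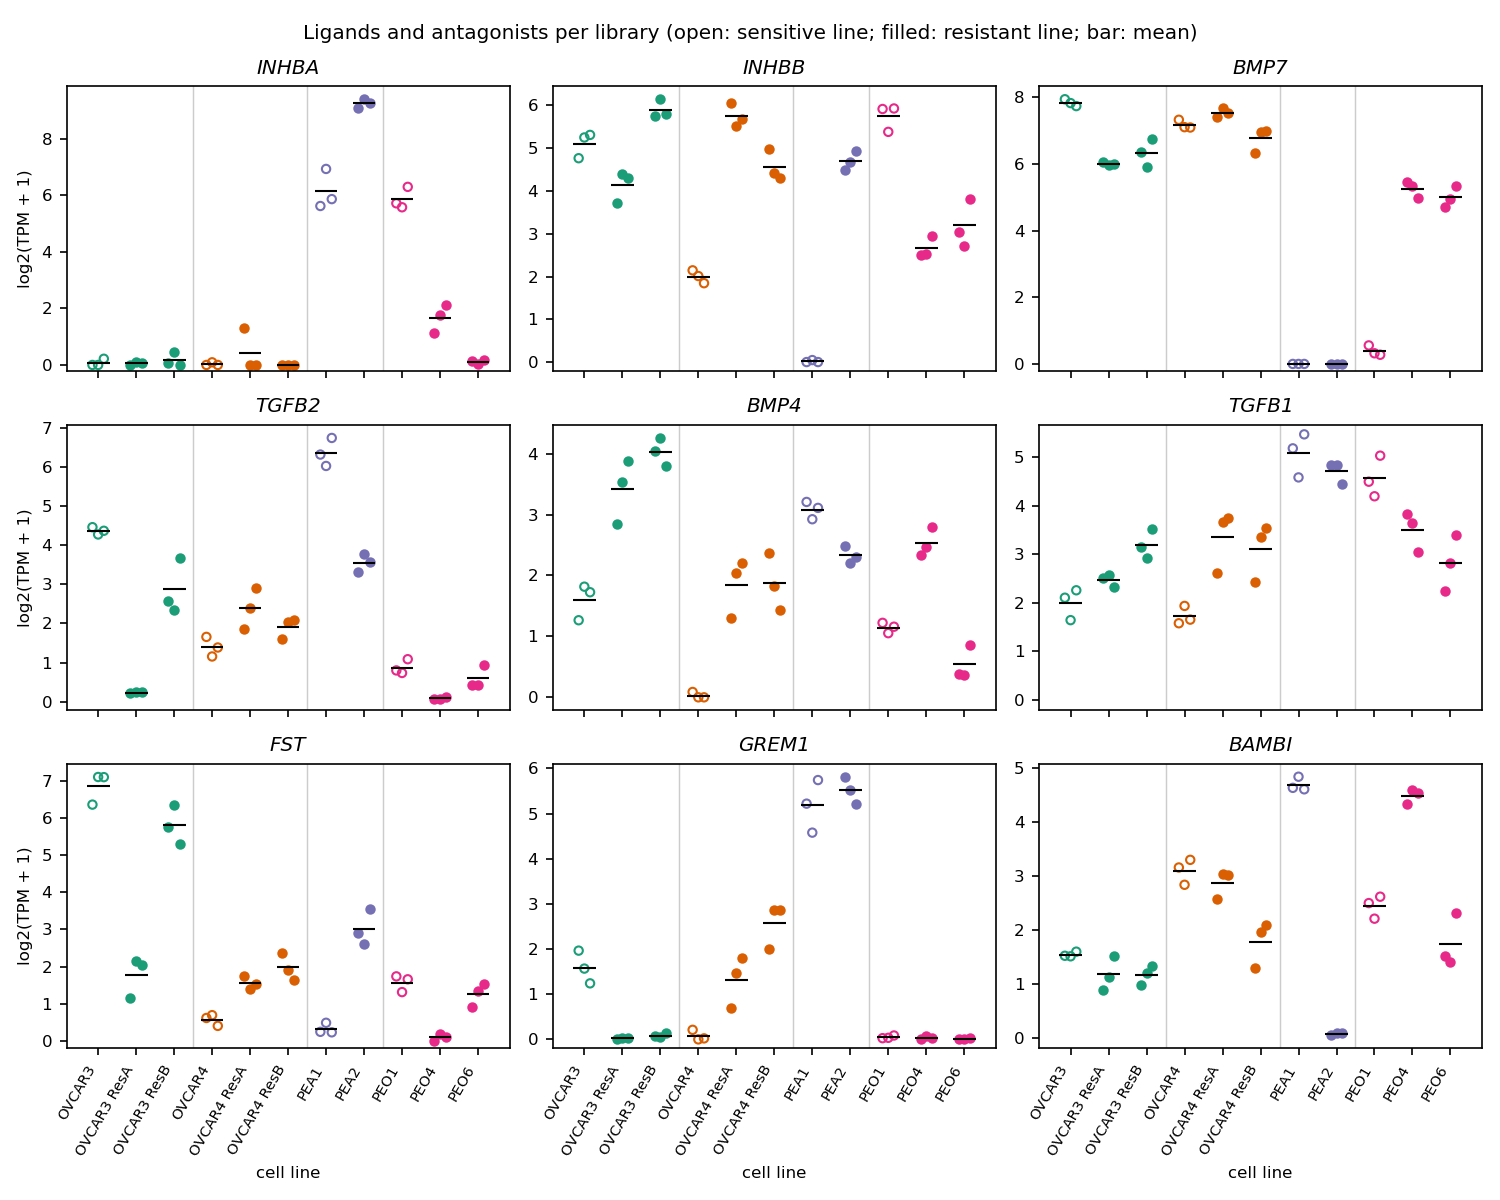
Level of 6 ligands and 3 antagonists in each library, as log2(TPM + 1) (vertical axis) by line (horizontal axis), with open points for sensitive lines, filled points for resistant lines and bars for the mean of 3 libraries. BMP4 lies higher in all 4 OVCAR3 and OVCAR4 derivatives, INHBA separates PEA2 (545 to 674 TPM) from PEO6 (at most 0.131 TPM), and FST is lower in OVCAR3 ResA than in OVCAR3.

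Among the receptors BMPR1A, a type I receptor for BMPs, was the most abundant by TPM in 7 lines and TGFBR2, the type II receptor for TGF-beta, in the other 4, OVCAR4 ResA, OVCAR4 ResB, PEA1 and PEA2. The one receptor called in 5 or more pairs was BMPR1B, the second type I receptor for BMPs. It was at 7.3, 4.9 and 4.06 TPM in OVCAR3, 0.463, 0.21 and 0.238 TPM in ResA and 1.12, 0.359 and 1.26 TPM in ResB. OVCAR4 had 2.83, 1.36 and 1.82 TPM, ResA 1.17, 2.16 and 2.26 TPM and ResB 0.467, 0.651 and 0.506 TPM. Both OVCAR3 derivatives and OVCAR4 ResB were below every library of their parent. PEA1 had 6.11, 3.45 and 8.52 TPM and PEA2 2.42, 2.55 and 2.69 TPM. PEO1 had 0.143, 0.114 and 0.161 TPM, PEO4 0.096, 0.0798 and 0.0509 TPM and PEO6 0.542, 0.752 and 1.03 TPM. BMPR1B fell in OVCAR3 ResA (log2 fold change -4.36, SE 0.25, adjusted p = 5.36e-65), OVCAR3 ResB (log2 fold change -2.81, SE 0.41, adjusted p = 1.25e-09), OVCAR4 ResB (log2 fold change -2.40, SE 0.43, adjusted p = 9.96e-07) and PEA2 (log2 fold change -1.02, SE 0.28, adjusted p = 0.00124), and rose in PEO6 (log2 fold change 2.42, SE 0.56, adjusted p = 8.77e-05), by DESeq2. The PEA2 call was lost without replicate 1 (adjusted p = 0.167), and that of OVCAR4 ResB with limma (adjusted p up to 0.102).

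TGFBR2, singled out after its values were seen, was at 18.4, 5.25 and 7.83 TPM in OVCAR4, 19.2, 66.8 and 77.6 TPM in ResA and 33.5, 142 and 157 TPM in ResB. It was at 41.3, 16.7 and 45.7 TPM in PEA1 and 132, 99.8 and 90.2 TPM in PEA2, with no overlap. It rose in OVCAR4 ResB (log2 fold change 2.82, SE 0.54, adjusted p = 5.46e-06) and PEA2 (log2 fold change 1.87, SE 0.26, adjusted p = 8.72e-12) and fell in OVCAR3 ResA (log2 fold change -1.46, SE 0.13, adjusted p = 3.75e-26), by DESeq2, while its higher level in OVCAR4 ResA (log2 fold change 1.88, SE 0.52, adjusted p = 0.00544) was lost without replicate 2 (adjusted p = 0.424) or 3 (adjusted p = 0.476). In each OVCAR4 derivative replicate 1 of TGFBR2 was well below replicates 2 and 3. The OVCAR4 ResB call was lost with edgeR and with limma (adjusted p up to 0.0872), and its log2 fold change was 3.71 without replicate 1 and 2.20 without replicate 2. The remaining 8 receptors were called in at most 3 pairs each, the type I receptors ACVR1 and BMPR1A in none (log2 fold changes -0.27 to 0.54 and -0.06 to 0.46), and their line means lay between 0.757 TPM for TGFBR3, a co-receptor, in PEO6 and 52.3 TPM for BMPR1A in OVCAR4 ResA. ACVR2B, a type II receptor for activin, overlaps ACVR2B-AS1, which reached 4.62 TPM in PEO6 against 3.14 TPM for ACVR2B, and the use of strand in counting is not given in the sources used here.

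The SMADs had most calls in OVCAR3 ResA and PEA2. Of 8 SMADs, 5 rose (22% of all genes) and 1 fell (22.9%) in OVCAR3 ResA, and 1 rose (23.3%) and 5 fell (23.8%) in PEA2. At most 3 of 8 were called in each of the other 5 pairs (7.67% to 41.4% of all genes). OVCAR3 ResA and PEA2 also had the highest shares of all genes called. By DESeq2 the OVCAR3 ResA calls of SMAD2 and SMAD4 were lost without any 1 of the replicates (adjusted p = 0.0995 to 0.189 and 0.069 to 0.376) and that of SMAD1 without replicate 1 or 3 (adjusted p = 0.28 and 0.582). In PEA2 the SMAD4 call was lost without replicate 1 (adjusted p = 0.113, DESeq2) and that of SMAD6 without replicate 1 or 2 (adjusted p = 0.424 and 0.277). SMAD7, which blocks type I receptors and is itself a target of the pathway, was at 4.88, 5.87 and 6.68 TPM in OVCAR3, 20.9, 36.9 and 30.8 TPM in ResA and 9.29, 10.4 and 19 TPM in ResB. In OVCAR4 it was at 7.35, 6.57 and 5.62 TPM, in ResA 15.2, 14.7 and 18.2 TPM and in ResB 12.8, 13.6 and 12.6 TPM. OVCAR3 ResA was above both other OVCAR3 lines in every library, and its increase was the largest of that pair among called members averaging at least 50 normalised counts. PEA1 had 27.1, 30.3 and 31.6 TPM and PEA2 3.54, 4.08 and 2.08 TPM. PEO1 had 13.8, 9.61 and 10.6 TPM, PEO4 15, 18.6 and 11.8 TPM and PEO6 4.43, 4.89 and 4.53 TPM. SMAD7 rose in OVCAR3 ResA (log2 fold change 2.18, SE 0.16, adjusted p = 1.55e-42) and fell in PEA2 (log2 fold change -3.06, SE 0.26, adjusted p = 4.43e-30) and PEO6 (log2 fold change -1.34, SE 0.27, adjusted p = 6.65e-06), by DESeq2, and in both OVCAR4 derivatives it lay above the parent in every library without passing the test (adjusted p = 0.105 and 0.317).

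Of the other SMADs, SMAD3, which carries TGF-beta and activin signals, was the leading SMAD of PEA2 at 104 ± 12.8 TPM against 46.8 ± 10.5 TPM in PEA1 (SD, n = 3; log2 fold change 1.31, SE 0.22, adjusted p = 1.67e-08, DESeq2) and fell in PEO6 (log2 fold change -1.62, SE 0.21, adjusted p = 6.52e-13). SMAD9, a BMP SMAD, was at most 2.25 TPM in any library and fell in PEA2 from 2.25, 1.94 and 2.16 TPM to 0.061, 0.0578 and 0.0199 TPM (log2 fold change -5.39, SE 0.55, adjusted p = 1.94e-21, DESeq2). SMAD1, also a BMP SMAD, went from 36, 30 and 40.3 TPM in PEA1 to 11.7, 9.95 and 9.24 TPM in PEA2 (log2 fold change -1.73, SE 0.24, adjusted p = 4.91e-12, DESeq2). SMAD6, the inhibitor of BMP signals, rose in PEO4 from 18.9, 12.1 and 13.5 TPM to 28.1, 32.7 and 40.5 TPM (log2 fold change 1.19, SE 0.23, adjusted p = 2.69e-06, DESeq2). SMAD2, SMAD4 and SMAD5 were called in 1, 2 and 2 pairs, with log2 fold changes between -0.82 and 0.70. These genes were taken as examples after their values were seen.

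The antagonists ranged widely between lines, with a summed level of 161 ± 43.2 TPM in OVCAR3 and 7.05 ± 3.43 TPM in PEO6 (SD, n = 3). FST encodes follistatin, which binds activin. It was at 80.9, 136 and 136 TPM in OVCAR3, 1.24, 3.41 and 3.15 TPM in ResA and 53, 80.6 and 38.6 TPM in ResB. OVCAR4 had 0.535, 0.618 and 0.325 TPM, ResA 2.36, 1.63 and 1.9 TPM and ResB 4.14, 2.77 and 2.14 TPM. OVCAR3 ResA was far below its parent whereas ResB overlapped it on normalised counts though not on TPM, and both OVCAR4 derivatives were above theirs. PEA1 had 0.186, 0.404 and 0.175 TPM and PEA2 6.49, 5.13 and 10.6 TPM. PEO1 had 2.33, 1.49 and 2.16 TPM, PEO4 0, 0.13 and 0.0795 TPM and PEO6 0.871, 1.53 and 1.88 TPM. FST fell in OVCAR3 ResA (log2 fold change -5.69, SE 0.15) and PEO4 (log2 fold change -4.93, SE 0.77, adjusted p = 2.62e-09) and rose in PEA2 (log2 fold change 4.84, SE 0.49, adjusted p = 1.68e-21), by DESeq2. The call in OVCAR4 ResB (log2 fold change 1.96, SE 0.58, adjusted p = 0.00716) was lost without replicate 1, 2 or 3 (adjusted p = 0.078, 0.094 and 0.24, DESeq2). The same was true of the call in OVCAR3 ResB (log2 fold change -1.18, SE 0.40, adjusted p = 0.0455), where the adjusted p was 0.0778, 0.214 and 0.0859 and the log2 fold change -0.60 without replicate 3.

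GREM1 encodes gremlin, an antagonist that binds BMPs. It was at 2.91, 1.96 and 1.36 TPM in OVCAR3, 0, 0.0292 and 0.0287 TPM in ResA and 0.0474, 0.0366 and 0.0986 TPM in ResB. OVCAR4 had 0.158, 0 and 0.0155 TPM, ResA 0.629, 1.79 and 2.46 TPM and ResB 2.98, 6.33 and 6.29 TPM. The families thus went opposite ways without overlap. PEA1 had 36.3, 22.9 and 52.5 TPM and PEA2 55.2, 44.9 and 36.1 TPM, the highest levels of the series and overlapping, while the 9 PEO libraries were at 0.0617 TPM or less. In OVCAR3 ResA GREM1 had 4 counts in all and was lower by a ratio of 124 (95% exact counting interval 48 to 457), adjusted p = 2.73e-16 (DESeq2). It also fell in OVCAR3 ResB (log2 fold change -5.18, SE 0.72, adjusted p = 6.57e-11) and rose in OVCAR4 ResB (log2 fold change 6.49, SE 0.88, adjusted p = 1.45e-11, DESeq2; log2 fold change 8.77 without replicate 1). The call in OVCAR4 ResA (log2 fold change 5.04, SE 1.09, adjusted p = 0.00014) was lost without replicate 2 (adjusted p = 0.0504) or 3 (adjusted p = 0.119).

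BAMBI encodes a pseudoreceptor that lacks the kinase domain and dampens type I receptors. It was at 23.9, 27.7 and 23.4 TPM in PEA1 and 0.0354, 0.0559 and 0.0676 TPM in PEA2. PEO1 had 4.65, 3.62 and 5.13 TPM, PEO4 19.1, 23.1 and 22.2 TPM and PEO6 1.86, 1.63 and 3.96 TPM. It was thus plain in PEA1 and nearly absent in PEA2, and PEO4 was above both other PEO lines. OVCAR4 had 7.93, 6.15 and 8.85 TPM, ResA 4.98, 7.19 and 7.07 TPM and ResB 1.45, 2.89 and 3.28 TPM. The OVCAR3 lines had 1.87, 1.85 and 2.02 TPM (parent), 0.851, 1.19 and 1.85 TPM (ResA) and 0.962, 1.31 and 1.5 TPM (ResB). BAMBI was lower in PEA2 by a ratio of 437 (95% exact counting interval 187 to 1350), adjusted p = 2.89e-33 (DESeq2), with 5 counts in all in PEA2. It rose in PEO4 (log2 fold change 2.31, SE 0.23, adjusted p = 5.91e-22) and fell in OVCAR4 ResB (log2 fold change -2.22, SE 0.40, adjusted p = 1.07e-06), by DESeq2, the latter call lost with limma (adjusted p up to 0.0901). The lower level in PEO6 (log2 fold change -0.96, SE 0.40, adjusted p = 0.0421) was lost without replicate 1, 2 or 3 (adjusted p = 0.288, 0.386 and 0.105, DESeq2).

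NOG, which encodes noggin, and CHRD, which encodes chordin, both bind BMPs. NOG was called lower in OVCAR3 ResA and higher in PEA2 and PEO4, with line means from 0.013 TPM in OVCAR4 to 39.5 TPM in OVCAR3. The PEO4 call of NOG was lost without replicate 3 (adjusted p = 0.0719, DESeq2), where its log2 fold change was 0.95 against 1.83 without replicate 1. CHRD was called higher in OVCAR4 ResA, OVCAR4 ResB and PEA2, with line means of at most 2.34 TPM. By DESeq2 its PEA2 call was lost without replicate 1, 2 or 3 (adjusted p = 0.426, 0.256 and 0.246) and that of OVCAR4 ResA without replicate 2 or 3 (adjusted p = 0.09 and 0.125) and with edgeR.

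The 4 ID genes, which encode dominant-negative helix-loop-helix proteins and are direct targets of BMP SMADs, were among the most abundant members. For each, the 250 bases before the transcription start were taken from RefSeq (GRCh38.p14) to show what the sequences near the starts of these targets hold. Capitals mark GTCT or AGAC, the SMAD box on either strand, and GGAGCC or GGCTCC, a GC-rich word on either strand, with no match overlapping another.

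ID1: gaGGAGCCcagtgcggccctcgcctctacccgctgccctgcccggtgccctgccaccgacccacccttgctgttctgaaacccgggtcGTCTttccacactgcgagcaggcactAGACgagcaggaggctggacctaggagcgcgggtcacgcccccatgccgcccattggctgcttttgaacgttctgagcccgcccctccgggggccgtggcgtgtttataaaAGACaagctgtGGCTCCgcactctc
ID2: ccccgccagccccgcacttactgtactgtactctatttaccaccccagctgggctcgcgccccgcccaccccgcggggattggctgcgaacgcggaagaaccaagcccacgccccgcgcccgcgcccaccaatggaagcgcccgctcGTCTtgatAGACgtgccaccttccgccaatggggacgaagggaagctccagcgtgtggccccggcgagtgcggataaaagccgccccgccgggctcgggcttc
ID3: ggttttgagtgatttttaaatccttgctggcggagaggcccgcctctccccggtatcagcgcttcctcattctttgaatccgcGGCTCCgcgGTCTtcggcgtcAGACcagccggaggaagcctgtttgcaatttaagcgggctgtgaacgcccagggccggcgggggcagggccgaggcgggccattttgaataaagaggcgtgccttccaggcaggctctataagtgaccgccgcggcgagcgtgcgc
ID4: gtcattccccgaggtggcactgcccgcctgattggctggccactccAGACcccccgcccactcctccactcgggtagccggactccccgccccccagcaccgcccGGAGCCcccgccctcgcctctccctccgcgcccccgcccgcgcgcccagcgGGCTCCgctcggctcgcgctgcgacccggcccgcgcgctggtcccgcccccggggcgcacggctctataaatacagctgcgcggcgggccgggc
SMAD7: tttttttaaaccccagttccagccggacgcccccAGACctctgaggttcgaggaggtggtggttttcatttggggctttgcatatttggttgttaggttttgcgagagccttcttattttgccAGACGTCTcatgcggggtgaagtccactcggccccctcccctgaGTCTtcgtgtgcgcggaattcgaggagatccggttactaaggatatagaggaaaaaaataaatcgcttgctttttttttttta

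The windows are chr20:31605039-31605288 (plus strand) for ID1, chr2:8681806-8682055 (plus) for ID2, chr1:23559502-23559751 (minus) for ID3, chr6:19837120-19837369 (plus) for ID4 and chr18:48950966-48951215 (minus) for SMAD7, which is shown beside them as the inhibitory target. The SMAD box occurred 3 times in ID1, 2 times in ID2 and in ID3, 1 time in ID4 and 4 times in SMAD7, and 77.5% of 35116 RefSeq windows of the same length hold it at least once. GGAGCC occurred 2 times in ID1 and ID4, 1 time in ID3 and 0 times in ID2 and SMAD7, with 30.6% of all windows holding it. GGCGCC was in none of the 5 windows and in 16.4% of all windows. A match describes letters and is not a measured binding site. Sequences were found for 39 of the 44 members.

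ID1 was the most abundant ID gene in 8 of the 11 lines by TPM. It was at 330.0, 429.7 and 532 TPM in OVCAR3, 651, 1089 and 966 TPM in ResA and 196, 469 and 322 TPM in ResB. OVCAR4 had 211, 159 and 157 TPM, ResA 667, 496 and 425 TPM and ResB 655, 337 and 275 TPM. OVCAR3 ResA and both OVCAR4 derivatives were above their parents in every library on TPM, and OVCAR3 ResB overlapped its parent. PEA1 had 146, 329 and 146 TPM and PEA2 67.6, 99.2 and 54.5 TPM. PEO1 had 203, 181 and 153 TPM, PEO4 196, 297 and 314 TPM and PEO6 55.2, 19.5 and 41.8 TPM. PEA2 and PEO6 were below their parents without overlap. ID1 rose in OVCAR3 ResA (log2 fold change 0.93, SE 0.11, adjusted p = 1.49e-16) and fell in PEA2 (log2 fold change -1.33, SE 0.26, adjusted p = 1.51e-06) and PEO6 (log2 fold change -2.30, SE 0.31, adjusted p = 1.93e-12), by DESeq2, and the OVCAR3 ResA call was lost in the single fit of all 33 libraries (adjusted p = 0.19). The call in OVCAR4 ResA (log2 fold change 1.03, SE 0.33, adjusted p = 0.0231) was lost without replicate 2 (adjusted p = 0.321) or 3 (adjusted p = 0.342). The call in PEO4 (log2 fold change 0.61, SE 0.23, adjusted p = 0.0265) was lost in the same way (adjusted p = 0.122 and 0.194), its log2 fold change being 0.93 without replicate 1 and 0.25 without replicate 3.

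ID2 was at 122, 134 and 157 TPM in OVCAR3, 294, 386 and 376 TPM in ResA and 63.2, 117 and 99.7 TPM in ResB. OVCAR4 had 15.7, 7.28 and 6.85 TPM, ResA 44.1, 17.8 and 32.7 TPM and ResB 79.7, 32.9 and 28 TPM. OVCAR3 ResA was again above its parent, and ResB was below it on TPM but overlapped it on normalised counts (adjusted p = 0.291, DESeq2). PEA1 had 34.2, 66.3 and 27 TPM and PEA2 28.6, 30 and 16.7 TPM. PEO1 had 278, 249 and 145 TPM, PEO4 301, 416 and 388 TPM and PEO6 167, 108 and 84 TPM. ID2 rose in OVCAR3 ResA (log2 fold change 1.21, SE 0.10, adjusted p = 2.8e-31), OVCAR4 ResB (log2 fold change 1.61, SE 0.39, adjusted p = 0.000501) and PEO4 (log2 fold change 0.79, SE 0.24, adjusted p = 0.00546), by DESeq2, the PEO4 log2 fold change being 0.35 without replicate 3 and its call kept in 7 of 10 other settings of test, scaling or replicates. The OVCAR4 ResA call (log2 fold change 1.16, SE 0.38, adjusted p = 0.0249) was lost without replicate 2 (adjusted p = 0.129) or 3 (adjusted p = 0.808), and the decrease in PEO6 (log2 fold change -0.92, SE 0.24, adjusted p = 0.000549) without replicate 2 (adjusted p = 0.0857).

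ID3 and ID4, singled out after their values were seen to complete the family, parted in the PEO lines. ID4 was at 26.7, 23.6 and 16.8 TPM in PEO1, 396, 444 and 521 TPM in PEO4 and 528, 664 and 344 TPM in PEO6. ID3 was at 54.1, 45.6 and 47.4 TPM in PEO1, 38.9, 64.2 and 54.9 TPM in PEO4 and 7.28, 3.78 and 7.42 TPM in PEO6. Both derivatives were above PEO1 for ID4, and PEO6 alone was below it for ID3. ID4 rose in PEO4 (log2 fold change 4.39, SE 0.23, adjusted p = 1.74e-78) and PEO6 (log2 fold change 4.47, SE 0.21, adjusted p = 1.9e-97), so that it made up 75.6% of summed ID TPM in PEO6, where ID1, ID2 and ID3 (log2 fold change -3.06, SE 0.29, adjusted p = 7.25e-24) all fell by DESeq2. In PEA2 ID3 fell from 38, 40.5 and 33.2 TPM in PEA1 to 3.65, 3.63 and 1.91 TPM (log2 fold change -3.53, SE 0.29, adjusted p = 2.59e-33) and ID4 from 3.54, 9.11 and 3.74 TPM to 1.38, 2.39 and 1.42 TPM (log2 fold change -1.45, SE 0.33, adjusted p = 4.43e-05, DESeq2), the latter call lost without replicate 2 (adjusted p = 0.0789). In OVCAR3 ResA ID3 and ID4 were called higher with log2 fold changes of 0.60 and 0.66, that of ID3 lost without replicate 3 (DESeq2 adjusted p = 0.0602) and both lost in the single fit of all 33 libraries (adjusted p = 0.184 and 0.358). Summed over the 4 genes, ID TPM was 636 ± 122 in OVCAR3, 1371 ± 298 in ResA and 485 ± 170 in ResB (SD, n = 3). It was 264 ± 54.2 in OVCAR4, 692 ± 126 in ResA and 574 ± 284 in ResB. The sums were 292 ± 132 in PEA1 and 104 ± 30.4 in PEA2, and 474 ± 102 in PEO1, 1143 ± 185 in PEO4 and 677 ± 174 in PEO6.

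**Figure D5:**
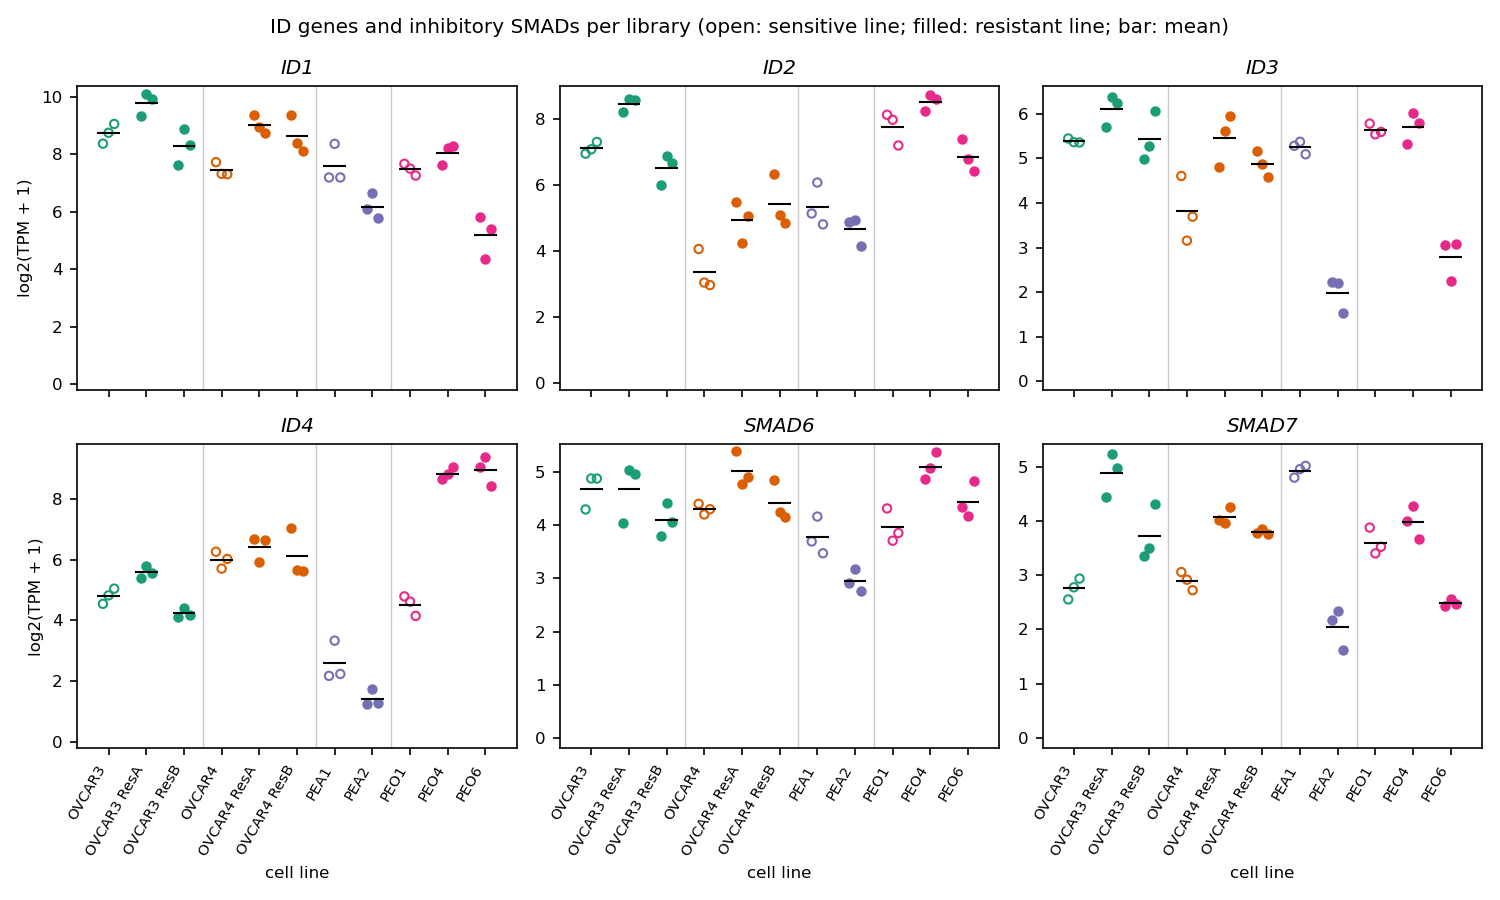
Level of ID1 to ID4, SMAD6 and SMAD7 in each library, as log2(TPM + 1) (vertical axis) by line (horizontal axis), with open points for sensitive lines, filled points for resistant lines and bars for the mean of 3 libraries. ID4 separates PEO4 and PEO6 (344 to 664 TPM) from PEO1 (16.8 to 26.7 TPM), while ID1 and ID3 are lowest in PEO6 within that family.

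PEA2 held EPCAM at 575 TPM and KRT7 at 1186 TPM, both far above PEA1, and also some markers of other cell types. CDH5 stood at 7.02 TPM and PTPRC at 3.30 TPM in PEA2, both at 0 in PEA1, while CD3E and DCN were at 0 in both lines. The part of these differences between PEA1 and PEA2 in the 26 calls was not tested.

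The resistant lines of one family also differed from each other. Between OVCAR3 ResB and ResA 10 of 38 members with an adjusted p were called (13.5% of all genes), 5 higher in ResB (7.47% of all genes) and 5 lower (6.04%), with TGFB2 (log2 fold change 5.18, SE 0.44, adjusted p = 1.1e-29) and FST (log2 fold change 4.53, SE 0.45, adjusted p = 1.06e-21) higher and ID1, ID2 and ID4 lower in ResB, by DESeq2. The ID1 call was lost without replicate 1 (adjusted p = 0.0562) and the ID4 call without replicate 2 (adjusted p = 0.0644). Between OVCAR4 ResB and ResA 17 of 41 were called (32.8% of all genes), 7 higher in ResB (16.2% of all genes) and 10 lower (16.5%). LEFTY1 was lower in ResB by a ratio of 113 (95% exact counting interval 38.5 to 553), adjusted p = 1.81e-11, and INHBB was lower (log2 fold change -1.26, SE 0.13, adjusted p = 7.87e-20) and GREM1 higher (log2 fold change 1.74, SE 0.28, adjusted p = 1.25e-08), by DESeq2. Between PEO6 and PEO4 16 of 39 were called (18.2% of all genes), 3 higher in PEO6 (9.86% of all genes) and 13 lower (8.33%), with INHBA (log2 fold change -4.84, SE 0.78, adjusted p = 2e-08), BMP4 (log2 fold change -3.51, SE 0.51, adjusted p = 3.6e-10), ID1 (log2 fold change -2.94, SE 0.40, adjusted p = 1.07e-11), ID3 (log2 fold change -3.18, SE 0.39, adjusted p = 1.82e-14) and BAMBI (log2 fold change -3.27, SE 0.36, adjusted p = 1.74e-17) lower and FST (log2 fold change 4.56, SE 0.90, adjusted p = 1.11e-05) higher in PEO6, by DESeq2. BMP7 and ID4, which were high in both, did not pass that test (log2 fold change -0.32 and 0.09).

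Whether a family's change differed from another's was tested in 1 fit of all 33 libraries. Resistant lines of one family were averaged with equal weight, and the SE came from the spread of libraries, not of lines. The tests thus describe these lines, and 1 derivative can drive a mean. In their own pairs, OVCAR3 ResA and ResB had log2 fold changes of -6.88 and -1.71 for TGFB2 and -5.69 and -1.18 for FST. For BMP4 they were closer, at 2.13 and 2.83. On the log2 scale, the mean change of the OVCAR4 derivatives differed from that of the OVCAR3 derivatives for 16 of 42 members (22.6% of all genes), 14 more positive in OVCAR4 (12.9% of all genes) and 2 more negative (9.67%). GREM1 (difference 11.14, SE 0.80, adjusted p = 7.71e-42), FST (difference 5.26, SE 0.63, adjusted p = 8.8e-15), TGFB2 (difference 4.90, SE 0.26, adjusted p = 3.4e-73) and BMP4 (difference 3.89, SE 1.16, adjusted p = 0.00592) were among the 14, by DESeq2, while for ID1, ID2, ID3 and ID4 the differences of 0.80, 1.32, 0.58 and -0.01 did not pass the test (adjusted p = 0.386, 0.0882, 0.368 and 0.998). The change from PEA1 to PEA2 differed from the mean change of PEO4 and PEO6 for 27 of 42 (43.7% of all genes), 11 more positive in the PEA family (21.1% of all genes) and 16 more negative (22.6%), among them INHBB (difference 14.08, SE 1.13, adjusted p = 9.96e-34), INHBA (difference 10.18, SE 2.23, adjusted p = 2.54e-05), FST (difference 7.62, SE 0.76, adjusted p = 2.25e-22), BAMBI (difference -9.50, SE 0.72, adjusted p = 9.42e-38) and ID4 (difference -6.05, SE 0.60, adjusted p = 1.95e-22), by DESeq2. The fitted differences of genes near 0 in a line, such as INHBB in PEA1, are no measure of size.

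A wider list of further pathway genes, in 6 groups and also chosen with earlier results known, was read in the same way. THBS1, SKIL and PMEPA1 are in 2 groups each and count in both. For these genes no calls with a replicate left out are given. The share of all genes called in that direction is again in parentheses. Of 16 genes known as targets of TGF-beta and activin, 10 fell (20.3% of all genes) and 1 rose (21.2%) among the 15 with an adjusted p in PEO6 (median log2 fold change -2.0). In PEO4 9 fell (16.7% of all genes) and 4 rose (16.6%) of 15, and in OVCAR3 ResA 8 rose (22%) and 4 fell (22.9%) of 16. In OVCAR3 ResB 4 of 15 were called, all of them higher (4.1% of all genes). In OVCAR4 ResA 5 rose (6.68% of all genes) and 3 fell (5.22%) of 15, in OVCAR4 ResB 3 rose (9.09%) and 2 fell (8.77%) of 15, and in PEA2 6 rose (23.3%) and 8 fell (23.8%) of 16. THBS1, which encodes an activator of latent TGF-beta, averaged 202 ± 38.1 TPM in PEO1, 9.28 ± 1.3 TPM in PEO4 and 13.4 ± 6.97 TPM in PEO6 (SD, n = 3). It averaged 7.54 ± 5.47 TPM in OVCAR4, 87.8 ± 56.0 TPM in ResA and 51.8 ± 22.6 TPM in ResB, with 3 calls in each direction over the 7 pairs. PMEPA1, a feedback inhibitor, averaged 3.76 ± 1.06 TPM in OVCAR3 against 17 ± 5.02 in ResA and 15.5 ± 9.22 in ResB. In PEO1 it averaged 89.5 ± 23.1 TPM against 15.7 ± 4.76 in PEO4 and 4.16 ± 0.908 in PEO6. FN1, fibronectin, was called in 6 pairs, 5 of them lower, but rose in PEA2 from 179 to 4425 TPM on average. TGFBI, a secreted matrix protein, averaged 95.3 TPM in PEO1 and 0.801 TPM in PEO6.

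Of 8 genes known as BMP targets, 7 had an adjusted p, and of these 4 fell (23.8% of all genes) and 1 rose (23.3%) in PEA2, 3 fell (20.3%) and 1 rose (21.2%) in PEO6, 3 rose (16.6%) and 2 fell (16.7%) in PEO4, and 3 rose (22%) and 1 fell (22.9%) in OVCAR3 ResA. At most 2 were called in each of the other 3 pairs (7.67% to 17.9% of all genes). With 7 genes, several of these counts lie near the share of all genes. DLX5, a homeobox gene, was called lower in 5 pairs and higher in none, its line means running from 0.0398 TPM in PEO4 to 41.8 TPM in OVCAR4. Of 21 latency and extracellular regulators, 9 rose (22% of all genes) and 5 fell (22.9%) among the 17 with an adjusted p in OVCAR3 ResA. By contrast 8 of 17 fell (23.8% of all genes) and 3 rose (23.3%) in PEA2, 8 of 20 fell (16.7%) and 2 rose (16.6%) in PEO4, and 7 of 18 fell (20.3%) and 4 rose (21.2%) in PEO6. ITGB6, the integrin subunit that activates latent TGF-beta on epithelium, had 4 calls as higher and 2 as lower, at 4.2 TPM in OVCAR4, 29.1 in ResA and 25.9 in ResB on average, and HTRA1, a secreted protease, higher in 4 and lower in 1. SKIL, a repressor of SMADs, BHLHE40, ADAM19 and TAGLN were each called in 5 pairs in both directions. Of 14 intracellular regulators 6 rose (22% of all genes) and 2 fell (22.9%) in OVCAR3 ResA, and 1 rose (21.2%) and 6 fell (20.3%) in PEO6. Of the 14 other ligands, 2 rose (23.3% of all genes) and 1 fell (23.8%) among the 7 with an adjusted p in PEA2, the most in any pair. Of the 10 other receptors and co-receptors, 8 had an adjusted p in OVCAR3 ResA and in PEA2. Among these 3 rose and 3 fell in OVCAR3 ResA (22% and 22.9% of all genes) and in PEA2 (23.3% and 23.8%), again the most in any pair.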

How the data were processed

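RNA-seq libraries of 11 HGSOC cell lines (3 per line) were prepared by the authors with a poly(A) mRNA kit, sequenced as one pool, demultiplexed with DRAGEN and run through nf-core/rnaseq on GRCh38, where salmon gave the deposited estimated counts per gene and, in a second deposited table, TPM; the study's methods give the versions of DRAGEN, Nextflow and the pipeline, while the use of strand is not given in the sources used here. The deposited estimated counts (88.4% whole) were rounded to whole numbers and tested as deposited, with no filter. The deposited TPM values served for levels and for limma.

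Groups came from the cell line and replicate labels. Each resistant line was compared with its parent, resistant lines with each other, families with each other, and the lines by resistance on counts summed per line. As in the study, DESeq2 1.42.0 (R 4.3.3) was used with line and replicate number as terms, Wald tests and Benjamini-Hochberg adjustment over all genes, called under 0.05; an adjusted p that DESeq2 gave as NA stayed NA. Alternatives were edgeR 4.0.16 (quasi-likelihood, TMM), limma 3.58.1 on log2(TPM + 1) and log2(TPM + 0.1) for genes reaching 1 TPM, TMM-based size factors, at least 10 counts in 3 libraries, no replicate block, 1 fit of all 33 libraries, and leaving out each replicate. The scripts were tested on simulated data. Same-numbered libraries deviated together (every correlation of deviations over 0.1) only in OVCAR3 ResA with OVCAR3 (0.816, 0.347 and 0.68) and OVCAR4 ResB with ResA (0.837, 0.744 and 0.712). They deviated in opposite directions in OVCAR4 ResA with OVCAR4 (-0.606, -0.491 and -0.226) and OVCAR4 ResB with OVCAR4 (-0.58, -0.505 and -0.131). The same held for PEO6 with PEO4 (-0.419, -0.208 and -0.504), and the block by replicate number was used in these pairs too.

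Values in every library are given for members called in at least 5 of the 7 pairs and for the largest increase and decrease of each pair among called members averaging at least 50 normalised counts; other pathway genes were named when called in at least 5 pairs. Members and lists were chosen with earlier results of these data known. A line with at most 3 counts in every library was treated as at a floor; if all were 0, the fold is a bound, and otherwise a ratio with its 95% exact interval, which covers counting error only. Depth was 18058985 to 43394009 counts. Promoter sequences are from RefSeq (GRCh38.p14). The authors' own comparisons were not used.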

Additional observations from a re-analysis of the deposited data

Results flagged for a closer look

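In 5 cases a change differed between families and every library moved in opposite directions, as judged by a DESeq2 test of the difference in 1 fit of all 33 libraries. The SE of these differences came from the spread of libraries, not of lines. GREM1 changed by 11.14 more on the log2 scale in the OVCAR4 derivatives than in the OVCAR3 derivatives (SE 0.80, adjusted p = 7.71e-42), with falls in OVCAR3 and rises in OVCAR4. Between the PEA and PEO families, with PEA2 against PEA1 set beside the mean of PEO4 and PEO6 against PEO1, the difference was 14.08 for INHBB (SE 1.13, adjusted p = 9.96e-34) and 10.18 for INHBA (SE 2.23, adjusted p = 2.54e-05), both higher in PEA2 and lower in the resistant PEO lines, by DESeq2. It was -6.05 for ID4 (SE 0.60, adjusted p = 1.95e-22) and -2.86 for TGFB3 (SE 0.40, adjusted p = 6.52e-12), both lower in PEA2 and higher in the resistant PEO lines, by DESeq2. GREM1 had few counts in OVCAR4 and OVCAR3 ResA, and INHBB in PEA1, so the size of those differences depends on the fit. TGFB3 had at most 26 counts per library in PEA2. Its DESeq2 call was lost without replicate 1, 2 or 3 in PEA2 (adjusted p = 0.45, 0.135 and 0.262), without replicate 1 or 2 in PEO4 (adjusted p = 0.0904 and 0.0545) and without replicate 3 in PEO6 (adjusted p = 0.0551). In PEA2 the ID4 call was lost without replicate 2, and the INHBA call in the fit of all 33 libraries.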

How the results depend on the processing

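None of the 170 member calls changed direction under any alternative in which it was refitted; 112 to 128 were kept when 1 replicate was left out, 144 of 168 with edgeR, 114 and 110 of 151 with limma on log2(TPM + 1) and log2(TPM + 0.1), 146 with all 33 libraries in 1 fit, 167 with TMM-based size factors and 158 with no replicate block. Numbers of members called fell with limma, at 4 and 3 (the second with the smaller pseudocount) in OVCAR3 ResB, 3 and 3 in OVCAR4 ResA, 6 and 6 in OVCAR4 ResB, 15 and 13 in PEO4, 6 and 6 for OVCAR3 ResB against ResA, and 8 and 8 for PEO6 against PEO4. With all 33 libraries in 1 fit they rose to 13 in OVCAR3 ResB, 20 in OVCAR4 ResA, 23 in OVCAR4 ResB and 17 for OVCAR3 ResB against ResA. edgeR called 1 in OVCAR4 ResA (1.54% of all genes) and 9 in OVCAR4 ResB (9.52%). Shares of all genes moved with the setting too, from 1.54% to 40.8% in OVCAR4 ResA and 4.26% to 46.1% in OVCAR4 ResB. For other pairs and settings they are not given, among them the fit of all 33 libraries and the fit with no replicate block. A rise or fall here is therefore not a result about the members. With no replicate block 19 were called in OVCAR4 ResA and 11 for OVCAR4 ResB against ResA, and the block moved no other count by over 1.5 times. Leaving out each replicate in turn gave 21 to 24 calls in OVCAR3 ResA, 3 to 9 in OVCAR3 ResB, 3 to 21 in OVCAR4 ResA, 9 to 21 in OVCAR4 ResB, 15 to 23 in PEA2, 14 to 21 in PEO4, 12 to 13 in PEO6, 6 to 13 for OVCAR3 ResB against ResA, 11 to 17 for OVCAR4 ResB against ResA, 10 to 18 for PEO6 against PEO4, 13 to 15 for OVCAR4 against OVCAR3 and 20 to 23 for PEA against PEO. Leaving out a replicate also leaves 2 libraries per line, and without replicate 1 the counts of both OVCAR4 derivatives rose to 21; the cause was not tested. Across lines 0 members were called, also without any replicate, and 1 without the PEO family, where the share of all genes is not given. On DESeq2's scaling the median gene moved by at most 0.05, and on TPM by 0.44 and 0.47 in the OVCAR4 derivatives. Depth limits INHA, NODAL, LEFTY2, BMP5 and other genes near the floor, where a missing call says little.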
